A study of Mus musculus with 16 samples.

Results

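The genes described here are 38 genes of the lysosome and of autophagy, found by their symbols among the 54532 genes of a count table of mouse jejunal enteroids, and all 38 were present. They comprise 6 proteins of the lysosomal membrane, 9 cathepsins and other peptidases, 7 glycosidases, 5 proteins of lipid handling (enzymes, carriers and their activators), the transcription factor Tfeb, the autophagy receptor Sqstm1, 5 members of the ATG8 family, and 4 factors of autophagy initiation and conjugation. Enteroids are epithelial cultures grown from intestinal crypts, and these cultures addressed what happens in epithelium when myosin Vb (MYO5B, a motor protein) is missing or mutated. Poly(A) RNA of 16 differentiated cultures was sequenced, 4 per group.

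The induced knockout (iKO) cultures carried Vil-CreERT2 and 2 floxed Myo5b alleles, and they received vehicle (PBS) during differentiation. The treated group had the same genotype and was given 100 nM Compound-1, an agonist of the lysophosphatidic acid receptor LPAR5, for 2 days of differentiation. The G519R cultures carried Vil-CreERT2, a floxed Myo5b allele and an allele with the G519R point mutation, so that recombination leaves the mutant allele alone. In these 3 groups Cre, driven by the villin promoter and so restricted to epithelium, was switched on by 1 µM 4-OH-tamoxifen for 24 h before differentiation. The controls are labelled as control only. The design text derives them from floxed mice of the knockout genotype and names ethanol as the alternative to 4-OH-tamoxifen, while the legend that reports these cultures calls them healthy littermates. Their genotype is therefore uncertain, and an effect of the drug or of active Cre and an effect of MYO5B loss cannot be told apart in any comparison with them. According to that legend, the cultures of each group came from 4 mice.

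Lysosomes break down protein, glycans and lipids delivered by endocytosis and by autophagy, the process in which a double membrane coated with ATG8 proteins (the LC3 and GABARAP families) encloses cytoplasm and fuses with the lysosome. Many of these genes share a promoter element, the CLEAR motif, bound by TFEB and its relatives, which enter the nucleus when the kinase mTORC1 at the lysosomal surface is inactive. In enterocytes the endolysosomal system receives both apical and basolateral cargo, and MYO5B moves RAB11-positive recycling endosomes to the apical membrane.

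Between 27804968 and 40101729 reads were counted per culture. Levels are given as CPM, counts scaled to a common library size by edgeR's TMM method. Groups were compared 4 against 4 by edgeR's quasi-likelihood test over all genes with 10 or more counts in 2 or more of the cultures compared. The p-values were adjusted over all these genes by the Benjamini-Hochberg method, with a threshold of 0.05. All 38 genes passed the filter in every comparison. Myo5b itself ranged from 160 to 230 CPM in control, 101 to 169 in iKO, 136 to 173 in G519R and 87.2 to 149 CPM in treated cultures. Its log2 fold change against control was -0.55 in iKO (edgeR adjusted p = 0.0503, and 0.0155 without control culture 1) and -0.33 in G519R (edgeR adjusted p = 0.109, and 0.0286 without control culture 1). These reads were counted over the whole gene, not over the floxed exons. Summed markers of macrophages and other immune cells (9 genes) lay between 1.69 and 4.03 CPM in every culture, with 2 to 4 of the 9 at 0 throughout a group, while the 11 enterocyte markers summed to between 3500 and 16429 CPM.

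Control culture 1 stood apart from the other controls. It lay outside the range of the other 3 controls for 32 of the 38 genes, in 26 cases on the side of the iKO mean, and it was outside that range for 78.3% of all genes. The same share was 31.7% to 46% for control cultures 2 to 4. For Gaa, the acid glucosidase of lysosomal glycogen, control culture 1 had 81.4 CPM and the other controls had 28.4, 32.7 and 28.6 CPM. Its reads also differed in kind. Mitochondrially encoded genes took 6.41% of its counts, against 9.07% to 10.4% in control cultures 2 to 4 and 3.79% to 6.63% in the 12 mutant cultures. The slope of expression on gene length (log2 CPM per doubling of length, relative to the mean of the 16 cultures) was 0.03 in control culture 1, -0.13 to -0.11 in the other controls and -0.0044 to 0.05 in the mutants. Its enterocyte markers summed to 3500 CPM, against 13165 to 16429 CPM in the other controls. Both log2 fold changes are therefore given where leaving out this culture changed a call. This covers the genes of the set in iKO and G519R against control. Whether it is another preparation or a mislabelled culture was not tested, and the part of these properties in the results was not tested beyond the fits with the length trend removed.

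The promoters of the set held the core of the CLEAR motif in several cases. RefSeq promoter sequences (build GRCm38.p6, 250 bases before to 50 bases after a start site) were matched for 32 of the 38 genes. The palindrome CACGTG, which reads the same on both strands, occurred for 10 of these 32 genes (31.2%) and for 2187 of the 27025 genes in the promoter table (8.09%). The extended palindrome TCACGTGA, which contains it, occurred for 4 of the 32 (12.5%) and for 1.12% of all genes. The 4 genes were Mcoln1, Ctsd, Ctsa and Gla, and Lamp1 held 4 copies of CACGTG. Their stretches are shown 5′ to 3′ on the strand of the gene because these 5 carry the extended palindrome or the most copies of the core, with the matches in capitals.
Mcoln1 (chr8:3500462-3500491, + strand): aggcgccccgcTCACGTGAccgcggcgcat
Ctsd (chr7:142387908-142387937, - strand): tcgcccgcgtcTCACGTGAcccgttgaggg
Ctsa (chr2:164833758-164833786, + strand): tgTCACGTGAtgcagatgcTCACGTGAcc
Gla (chrX:134601187-134601239, - strand): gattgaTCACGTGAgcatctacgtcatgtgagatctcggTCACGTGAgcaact
Lamp1 (chr8:13159094-13159157, + strand): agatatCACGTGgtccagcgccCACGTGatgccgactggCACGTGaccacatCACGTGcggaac

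These matches describe letters in a window and not binding. The other genes with CACGTG were Gaa, Glb1, Ctsl, Atg5 and Atg7, so that among the 10 some were higher in mutant cultures, Atg5 was lower and others did not pass the test, as given below.

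Knockout enteroids differed from control in both directions across the set. Against control, 14 of the 38 genes were higher in iKO cultures and 4 were lower at the edgeR threshold, where 13.5% of all 17951 genes tested were higher and 13.8% were lower. The values of iKO and control cultures did not overlap for 16 of the 38, against 26.9% of all genes. The median log2 fold change was 0.15 over the set and -0.01 over all genes tested. With control culture 1 left out, 16 were higher and 9 lower, where 21.2% and 20.8% of all genes were. Leaving out another culture lowered these counts: 8 higher and 2 lower without control culture 2, 3 or 4, 9 and 2 without iKO culture 1, 9 and 1 without iKO culture 2, and 7 higher without iKO culture 3. The shares of all genes fell as well, to between 8.45% and 11.2% higher and between 7.98% and 11.3% lower in these fits.

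The G519R enteroids gave 9 higher and 7 lower genes of the 38 against the same controls, with 13.1% of 17829 genes higher and 13.7% lower. The groups did not overlap for 15 of the 38, against 27.4% of all genes, and the median log2 fold change was 0.09 over the set and -0.05 over all genes. Without control culture 1 the counts were 16 higher and 11 lower, with 24% and 22.1% of all genes. Without G519R culture 1, 2 or 3 the lower genes fell to 4, where 7.99% to 9.03% of all genes were lower, and without control culture 3 the higher genes fell to 6, where 8.22% of all genes were higher. As both comparisons use the same 4 controls, a gene that passes in each has not been found independently, and its values are given side by side.

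**Figure D1:**
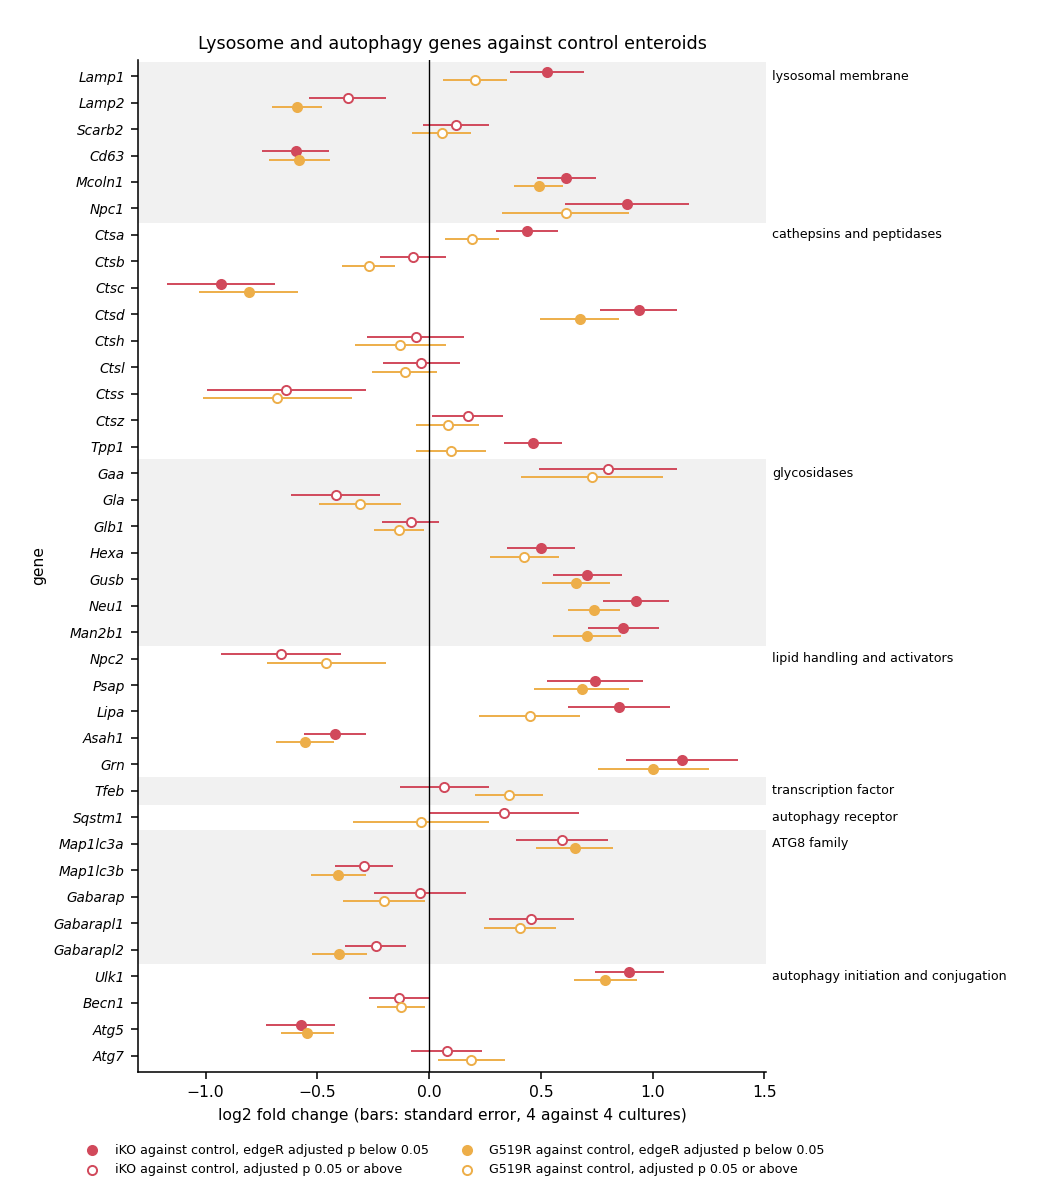
Log2 fold change of each gene against control in iKO (red) and G519R (yellow) enteroids, grouped by role, with the standard error as bars and 4 against 4 cultures in each comparison. Filled points have an edgeR adjusted p below 0.05. Grn, Ctsd and Neu1 lie to the right of 0 with filled points in both comparisons, while Ctsc, Cd63, Asah1 and Atg5 lie to the left with filled points in both.

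Among the lysosomal membrane proteins, Mcoln1 was higher and Cd63 lower in both mutants. Mcoln1 (ENSMUSG00000004567, GRCm38 chromosome 8, 3500457 to 3515232, + strand) encodes TRPML1, the channel that releases calcium from lysosomes, and its promoter holds the extended palindrome shown above. It had 27.7, 25.0, 23.5 and 26.9 CPM in control cultures 1 to 4, 39.9, 39.8, 43.9 and 33.6 CPM in iKO and 32.5, 36.3, 38.4 and 37.8 CPM in G519R. Every mutant culture was above every control. The log2 fold change was 0.61 ± 0.13 (SE, adjusted p = 0.00796 in edgeR) in iKO and 0.49 ± 0.11 (SE, adjusted p = 0.0105 in edgeR) in G519R, and both calls held under every alternative and every left-out culture. Cd63 (ENSMUSG00000025351, chromosome 10, 128900989 to 128912822, + strand) encodes a tetraspanin of late endosomes and lysosomes. It had 222, 228, 260 and 306 CPM in control, 156, 166, 157 and 191 CPM in iKO and 168, 157, 159 and 195 CPM in G519R. No iKO or G519R culture reached a control. Its log2 fold change was -0.60 ± 0.15 (SE, adjusted p = 0.0143 in edgeR) in iKO and -0.58 ± 0.14 (SE, adjusted p = 0.0131 in edgeR) in G519R, and without control culture 4 the edgeR adjusted p for iKO was 0.0507.

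The other membrane proteins followed different patterns. Lamp1, an abundant glycoprotein that lines the lysosomal membrane, was the gene with the highest control level per length of the set (164 CPM per kb). Its mean was 439 ± 63.5 CPM (SD, n = 4) in control, 630 ± 98.7 in iKO and 506 ± 53.9 in G519R, and it was higher in iKO (log2 fold change 0.53, SE 0.17, adjusted p = 0.0379 in edgeR) and not past the threshold in G519R (0.20, SE 0.14, adjusted p = 0.319 in edgeR). In G519R it was higher once control culture 1 was left out (0.34, edgeR adjusted p = 0.0292). The iKO call was lost in 6 of the 8 fits that each left out a culture, those without control culture 2, 3 or 4 or iKO culture 1, 2 or 3. It was also lost under 2 other alternatives (edgeR adjusted p up to 0.113). Lamp2, its paralog with a role in fusion with autophagosomes, went the other way. It averaged 251 ± 24.1 CPM in control, 194 ± 45.0 in iKO and 167 ± 8.6 in G519R, and passed the test in G519R only (-0.59, SE 0.11, adjusted p = 0.00556 in edgeR, against -0.36, SE 0.17, adjusted p = 0.140 in edgeR in iKO). Npc1, which exports cholesterol from lysosomes, was at 32.8 CPM in control culture 1 and 12.6 to 15.5 CPM in the other controls, and at 30.8 to 39.0 CPM in iKO. With all cultures its log2 fold change in iKO was 0.89 ± 0.28 (SE, adjusted p = 0.0361 in edgeR), and without control culture 1 it was 1.29 (edgeR adjusted p = 7.31e-05). In G519R it did not pass with all cultures (0.61, edgeR adjusted p = 0.138) and was higher without control culture 1 (1.06, edgeR adjusted p = 0.000190). Leaving out any other culture lost the iKO call (edgeR adjusted p up to 0.103). Of the exonic bases of Npc1, 4.52% are shared with the oppositely oriented gene Rmc1, so their reads cannot be told apart without strand. Scarb2, which carries glucocerebrosidase to lysosomes, averaged 86.4, 93.4 and 89.8 CPM in control, iKO and G519R and passed in neither comparison.

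The peptidases were split. Ctsd (ENSMUSG00000007891, chromosome 7, 142375911 to 142388038, - strand) encodes cathepsin D, the main aspartic protease of the lysosome. It had 134, 178, 186 and 177 CPM in control, 243, 365, 361 and 319 CPM in iKO and 228, 230, 358 and 260 CPM in G519R. All 8 mutant cultures exceeded all controls, and control culture 1 was the lowest of the 16 rather than near the mutants. On the log2 scale the difference from control was 0.94 ± 0.17 (SE, adjusted p = 0.00416 in edgeR) in iKO and 0.67 ± 0.18 (SE, adjusted p = 0.0197 in edgeR) in G519R. Leaving out control culture 1 lowered it to 0.84 and 0.61. Ctsc (ENSMUSG00000030560, chromosome 7, 88278085 to 88310888, + strand) encodes cathepsin C, a dipeptidyl peptidase that activates granule serine proteases in immune cells. It had 211, 126, 118 and 107 CPM in control, 71.0, 62.0, 58.5 and 102 CPM in iKO and 80.4, 78.4, 63.8 and 98.5 CPM in G519R. The groups did not overlap, though iKO culture 4 came within a few CPM of control culture 4. Its log2 fold change was -0.93 ± 0.24 (SE, adjusted p = 0.0175 in edgeR) in iKO and -0.81 ± 0.22 (SE, adjusted p = 0.0240 in edgeR) in G519R. Without control culture 1, its highest control, the log2 fold change shrank to -0.67 and -0.51, and both calls held. The calls were lost without iKO culture 2 or 3 (edgeR adjusted p up to 0.0597) and without G519R culture 1, 2 or 3 (up to 0.0711).

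Of the remaining peptidases, Ctsa and Tpp1 were higher in iKO only by the test. Ctsa encodes the carboxypeptidase that also protects neuraminidase and beta-galactosidase, and it holds 2 copies of the extended palindrome. It averaged 140 ± 18 CPM in control, 189 ± 16.5 in iKO and 160 ± 9.84 in G519R, with a log2 fold change of 0.44 ± 0.14 (SE, adjusted p = 0.0390 in edgeR) in iKO. Control culture 1 was again its lowest culture at 116 CPM, and without it the iKO log2 fold change was 0.35. Tpp1, a tripeptidyl peptidase, averaged 67.6 ± 1.82 CPM in control, 92.9 ± 13.6 in iKO and 72.3 ± 17.3 in G519R (iKO log2 fold change 0.46, SE 0.13, adjusted p = 0.0240 in edgeR). The Ctsa call was lost without any culture but control culture 1, and the Tpp1 call without control culture 2, 3 or 4 or iKO culture 3. Both were lost with the length trend removed, with no filter and with a block on the replicate number. Over all alternatives the edgeR adjusted p reached 0.124 for Ctsa and 0.0766 for Tpp1. The cysteine cathepsins Ctsb, Ctsh, Ctsl, Ctss and Ctsz passed in neither comparison. Ctsb was the most abundant by CPM, with means of 645 in control, 610 in iKO and 535 in G519R. Ctsh, Ctsl and Ctsz stayed between 76.1 and 243 CPM in the means of these 3 groups, with log2 fold changes of -0.13 to 0.17. Ctss, cathepsin S, was at 15.0 CPM in control culture 1 and 48.9 to 56.4 CPM in the other controls, with 20.4 to 35.1 CPM in iKO and 24.9 to 29.1 CPM in G519R. With all cultures its log2 fold change was -0.64 (edgeR adjusted p = 0.205) in iKO and -0.68 (edgeR adjusted p = 0.159) in G519R. Leaving out control culture 1, it was lower in iKO (log2 fold change -0.93, edgeR adjusted p = 0.00194) and in G519R (-0.94, edgeR adjusted p = 5.93e-05).

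Among the glycosidases, 4 of 7 genes were higher in iKO and 3 in G519R, where 13.5% and 13.1% of all genes tested were. The median over the 7 was 0.71 (log2 fold change) in iKO and 0.66 in G519R. The 5 proteins of lipid handling had 3 higher in iKO and 2 in G519R, with medians of 0.74 and 0.45. Neu1 (ENSMUSG00000007038, chromosome 17, 34931253 to 34935953, + strand) encodes the lysosomal neuraminidase, which removes terminal sialic acid. It had 66.4, 53.8, 67.0 and 62.9 CPM in control, 108, 132, 135 and 97.2 CPM in iKO and 112, 104, 111 and 90.3 CPM in G519R. Control culture 1 lay among the other controls, and every mutant culture was above them. As a log2 fold change this was 0.93 ± 0.15 (SE, adjusted p = 0.00242 in edgeR) in iKO and 0.74 ± 0.12 (SE, adjusted p = 0.00316 in edgeR) in G519R.

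Gusb (ENSMUSG00000025534, chromosome 5, 129989011 to 130003049, - strand) encodes beta-glucuronidase, which cleaves glucuronate from glycosaminoglycans. It had 69.2, 51.5, 56.9 and 49.2 CPM in control, 87.2, 83.9, 84.6 and 113 CPM in iKO and 76.8, 77.3, 98.3 and 105 CPM in G519R. No control reached the lowest mutant culture. Its log2 fold change was 0.71 ± 0.15 (SE, adjusted p = 0.00806 in edgeR) in iKO and 0.66 ± 0.15 (SE, adjusted p = 0.0124 in edgeR) in G519R. Man2b1 (ENSMUSG00000005142, chromosome 8, 85083270 to 85098282, + strand) encodes the lysosomal alpha-mannosidase. It had 98.3, 64.7, 65.1 and 66.3 CPM in control, 141, 133, 137 and 124 CPM in iKO and 118, 110, 131 and 122 CPM in G519R. Control culture 1 was intermediate, above the other controls and below every mutant culture. This gave a log2 fold change of 0.87 ± 0.16 (SE, adjusted p = 0.00393 in edgeR) in iKO and 0.71 ± 0.15 (SE, adjusted p = 0.00918 in edgeR) in G519R, and 1.04 and 0.91 without control culture 1.

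Hexa, the alpha subunit of beta-hexosaminidase, had 87.9 CPM in control culture 1 and 57.9 to 61.2 CPM in the others, against 91.4 to 95.2 CPM in iKO and 80.5 to 97.2 CPM in G519R. It was higher in iKO (log2 fold change 0.50, SE 0.15, adjusted p = 0.0334 in edgeR) and just short of the threshold in G519R (0.43, SE 0.15, adjusted p = 0.0664 in edgeR), where it passed without control culture 1 (0.62, edgeR adjusted p = 0.000553). Leaving out any culture but control culture 1 lost the iKO call, as did a block on the replicate number (edgeR adjusted p up to 0.101). Gaa did not pass with all 4 controls (log2 fold change 0.80, SE 0.31, adjusted p = 0.0771 in edgeR in iKO, and 0.73, SE 0.32, adjusted p = 0.116 in edgeR in G519R). Its 12 mutant cultures nevertheless lay between 66.3 and 75.8 CPM, above control cultures 2 to 4 and below control culture 1. Without control culture 1 the log2 fold change was 1.31 in iKO (edgeR adjusted p = 3.65e-05) and 1.28 in G519R (edgeR adjusted p = 3.51e-05). Gla, alpha-galactosidase, averaged 23.7, 17.7 and 19.1 CPM and Glb1, beta-galactosidase, 71.5, 67.2 and 65.1 CPM in control, iKO and G519R. Neither passed with all cultures, where the log2 fold change of Gla was -0.42 (edgeR adjusted p = 0.142) in iKO and -0.31 (edgeR adjusted p = 0.243) in G519R. Gla alone of this pair was lower without control culture 1 (-0.58, edgeR adjusted p = 0.00450 in iKO, and -0.44, edgeR adjusted p = 0.00489 in G519R).

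Proteins of lipid handling held the largest rise of the set with all cultures. Grn (ENSMUSG00000034708, chromosome 11, 102430315 to 102437048, + strand) encodes progranulin, which is processed to granulins in lysosomes. It had 90.0, 37.9, 48.8 and 40.8 CPM in control, 126, 116, 122 and 110 CPM in iKO and 104, 108, 114 and 109 CPM in G519R. The mutants lay above all controls, and control culture 1 stood between them and the other controls. The log2 fold change was 1.13 ± 0.25 (SE, adjusted p = 0.00829 in edgeR) in iKO and 1.00 ± 0.25 (SE, adjusted p = 0.0159 in edgeR) in G519R, the latter at 0.0512 without control culture 3, and it was 1.48 and 1.39 without control culture 1.

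Psap (ENSMUSG00000004207, chromosome 10, 60277627 to 60302597, + strand) encodes prosaposin, precursor of the saposins that present sphingolipids to lysosomal hydrolases. It had 301, 151, 160 and 167 CPM in control, 328, 324, 336 and 310 CPM in iKO and 319, 316, 303 and 314 CPM in G519R. Control culture 1 fell just below the lowest mutant culture, so the groups did not overlap but the size of the difference rested on the other controls. As a log2 fold change this was 0.74 ± 0.22 (SE, adjusted p = 0.0274 in edgeR) in iKO and 0.68 ± 0.21 (SE, adjusted p = 0.0392 in edgeR) in G519R, and 1.03 and 1.00 without control culture 1. With any of control cultures 2, 3 and 4 left out, with any G519R culture left out, or without iKO culture 1, 2 or 3, the calls were lost (edgeR adjusted p up to 0.0878 in iKO and 0.111 in G519R).

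Asah1 (ENSMUSG00000031591, chromosome 8, 41340197 to 41374773, - strand) encodes acid ceramidase. It had 120, 140, 151 and 143 CPM in control, 103, 98.0, 121 and 89.1 CPM in iKO and 88.8, 90.5, 114 and 83.9 CPM in G519R. The G519R cultures lay below all controls, and iKO culture 3 overlapped with control culture 1. This gave a log2 fold change of -0.42 ± 0.14 (SE, adjusted p = 0.0448 in edgeR) in iKO and -0.55 ± 0.13 (SE, adjusted p = 0.0127 in edgeR) in G519R. The iKO call was lost without control culture 2, 3 or 4, without iKO culture 1, 2 or 4, and under 3 other alternatives (edgeR adjusted p up to 0.133). Lipa, the acid lipase of cholesteryl esters and triglycerides, averaged 33.9 ± 8.96 CPM in control, 60.9 ± 14.3 in iKO and 46.4 ± 11.6 in G519R. It was higher in iKO (log2 fold change 0.85, SE 0.23, adjusted p = 0.0194 in edgeR), and 0.69 without control culture 1. The call was lost without control culture 4 or iKO culture 1 or 3, and with a block on the replicate number (edgeR adjusted p up to 0.0598). Npc2, the soluble sterol carrier that works with NPC1, had 118 CPM in control culture 1 and 248 to 329 CPM in the other controls, with 128 to 173 CPM in iKO and 144 to 198 CPM in G519R. It did not pass with all cultures (log2 fold change -0.66, edgeR adjusted p = 0.0885 in iKO, and -0.46, edgeR adjusted p = 0.228 in G519R). It was lower without control culture 1 (-0.89, edgeR adjusted p = 0.000576 in iKO, and -0.66, edgeR adjusted p = 0.00248 in G519R).

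**Figure D2:**
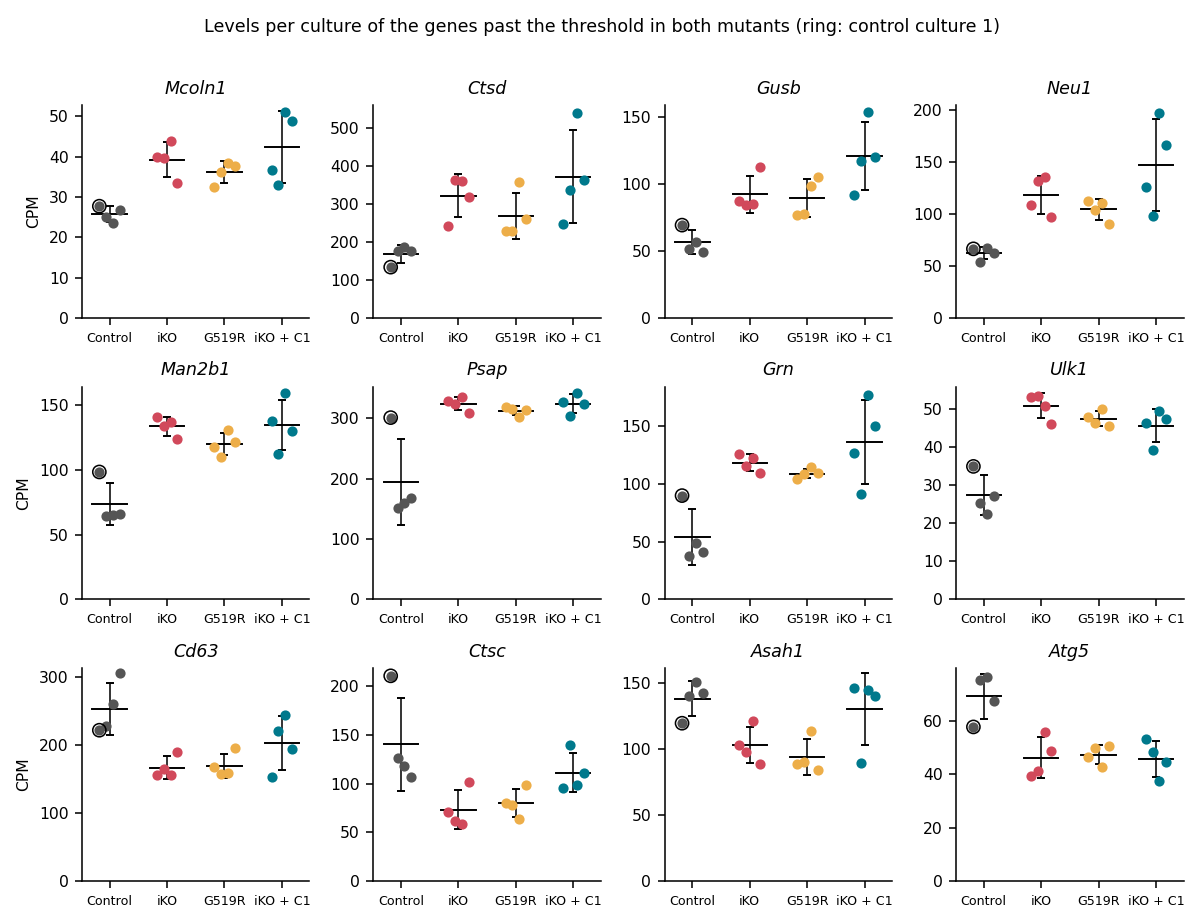
CPM per culture (points) with group mean and SD (bars) for the 12 genes with an edgeR adjusted p below 0.05 in both comparisons with control; iKO + C1 marks iKO cultures given Compound-1, and the ring marks control culture 1. For Psap the ringed control sits at 301 CPM, just below the mutant cultures. For Neu1 it sits among the other controls and for Ctsd below them. For Mcoln1 it sits at 27.7 CPM, slightly above the other controls at 23.5 to 26.9 CPM.

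Of the 4 genes of autophagy initiation and conjugation, Ulk1 was higher and Atg5 lower in both mutants. Ulk1 (ENSMUSG00000029512, chromosome 5, 110784488 to 110810097, - strand) encodes the kinase that starts autophagosome formation and is held inactive by mTORC1. It had 34.9, 25.2, 22.5 and 27.2 CPM in control, 53.0, 53.4, 50.7 and 46.1 CPM in iKO and 47.8, 46.4, 49.9 and 45.6 CPM in G519R. All mutant cultures were above all controls. On the log2 scale the difference from control was 0.90 ± 0.15 (SE, adjusted p = 0.00320 in edgeR) in iKO and 0.79 ± 0.14 (SE, adjusted p = 0.00458 in edgeR) in G519R. Atg5 (ENSMUSG00000038160, chromosome 10, 44268358 to 44364291, + strand) encodes a part of the complex that attaches ATG8 proteins to lipid. It had 57.7, 75.1, 76.3 and 67.4 CPM in control, 39.3, 41.1, 55.7 and 48.8 CPM in iKO and 46.4, 49.7, 42.8 and 50.5 CPM in G519R. Every mutant culture was below every control. The log2 fold change was -0.58 ± 0.15 (SE, adjusted p = 0.0192 in edgeR) in iKO and -0.55 ± 0.12 (SE, adjusted p = 0.00973 in edgeR) in G519R, and the iKO call was lost without control culture 2 or 3 or iKO culture 1 or 2 (edgeR adjusted p up to 0.0670).

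Becn1, a subunit of the lipid kinase complex that nucleates the phagophore, averaged 84.2, 76.3 and 77.1 CPM and Atg7, the activating enzyme of ATG8 conjugation, 30.9, 32.4 and 35.2 CPM in control, iKO and G519R, and neither passed with all cultures. Atg7 was higher in G519R without control culture 1 (log2 fold change 0.38, edgeR adjusted p = 0.00634, against 0.19, edgeR adjusted p = 0.382 with all cultures). Tfeb stood at 10.9 ± 1.30 CPM in control, 11.3 ± 2.65 in iKO and 13.9 ± 1.90 in G519R. Its log2 fold change was 0.07 (95% confidence interval -0.37 to 0.50) in iKO and 0.36 (0.02 to 0.70, edgeR adjusted p = 0.109) in G519R, where it was higher without control culture 1 (0.43, edgeR adjusted p = 0.0364). Sqstm1 (p62), which binds ubiquitinated cargo and ATG8 proteins, varied widely between cultures. It had 335, 127, 133 and 136 CPM in control, 190, 202, 178 and 348 CPM in iKO and 153, 160, 211 and 189 CPM in G519R, and 174, 492, 403 and 285 CPM in treated cultures. Single high cultures occurred in control and in iKO, and the log2 fold changes of 0.34 (SE 0.34) and -0.03 (SE 0.30) did not pass. With control culture 1 left out they were 0.80 (edgeR adjusted p = 0.0115) and 0.46 (edgeR adjusted p = 0.00852).

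The 5 ATG8 genes differed in direction. Map1lc3a was above its control mean and Map1lc3b and Gabarapl2 were below it in both mutants. In G519R, Map1lc3a was higher (8.11 ± 1.63 CPM in control, 12.7 ± 1.39 in G519R, log2 fold change 0.65, SE 0.17, adjusted p = 0.0213 in edgeR). In the same comparison Map1lc3b was lower (97.1 ± 7.92 against 73.3 ± 9.62 CPM, -0.41, SE 0.12, adjusted p = 0.0334 in edgeR), as was Gabarapl2 (62.8 ± 7.71 against 47.6 ± 4.06 CPM, -0.40, SE 0.12, adjusted p = 0.0356 in edgeR). Each of these 3 calls was lost in 5 or 6 of the 8 fits that left out a culture, and under 2 other alternatives. In iKO none of the 5 passed with all cultures, where 3 had an unadjusted p under 0.05, and Map1lc3a came nearest (0.59, SE 0.21, adjusted p = 0.0547 in edgeR). With control culture 1 left out, Map1lc3b (-0.35, edgeR adjusted p = 0.0279) and Gabarapl2 (-0.32, edgeR adjusted p = 0.0353) were lower in iKO, and Gabarap was lower in G519R (-0.34, edgeR adjusted p = 0.00845). With all cultures these values were, in the same order, -0.29 (edgeR adjusted p = 0.115), -0.24 (edgeR adjusted p = 0.211) and -0.20 (edgeR adjusted p = 0.452). Gabarapl1 averaged 18.8, 25.7 and 25.0 CPM and Gabarap 223, 216 and 194 CPM in control, iKO and G519R.

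**Figure D3:**
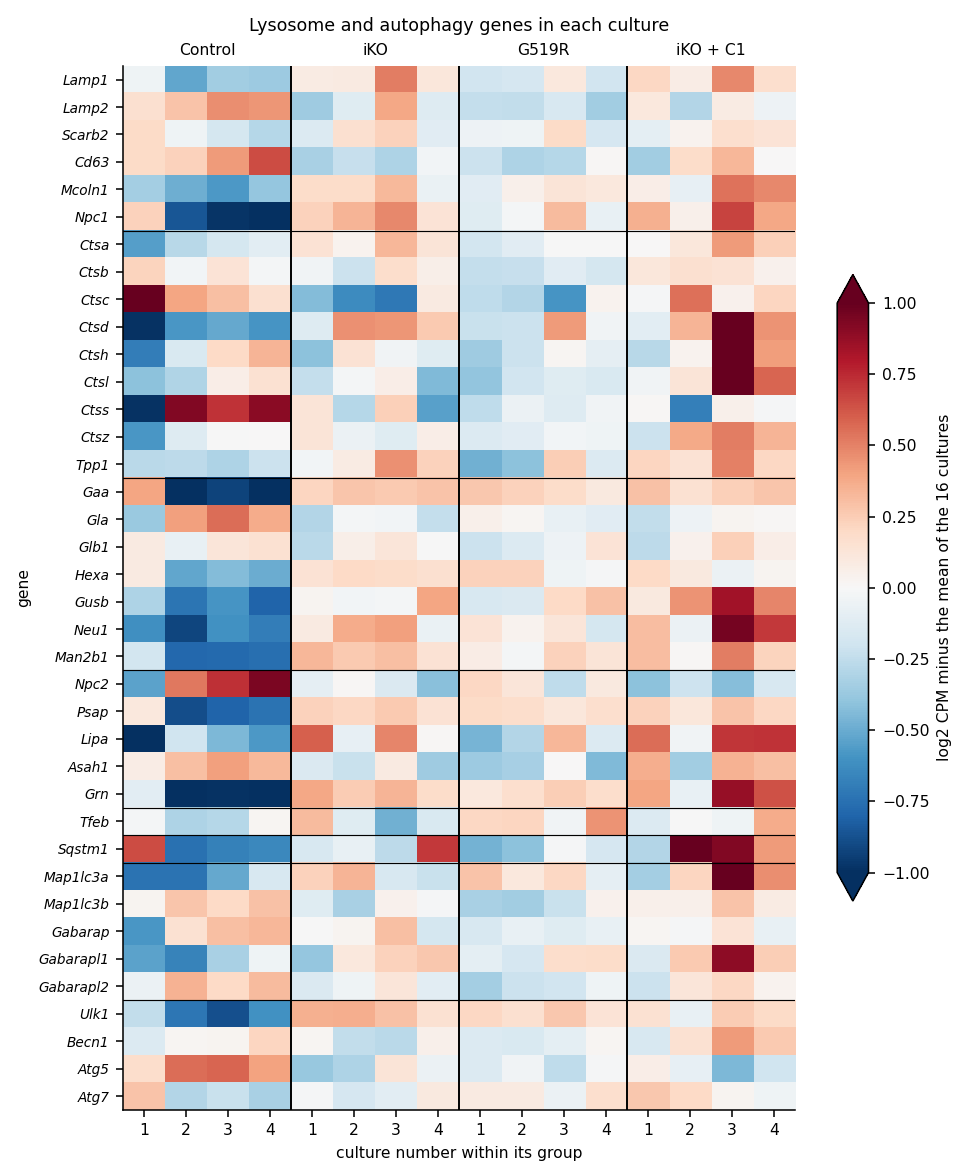
Level of each of the 38 genes in each of the 16 cultures, as log2 CPM minus the mean of the 16 cultures, with colours cut at -1 and 1 and iKO + C1 for iKO cultures given Compound-1. The first control column differs from the other 3 for genes such as Gaa, Ctss, Npc2 and Sqstm1, and the third Compound-1 column is dark red for Ctsd, Ctsh, Ctsl and Neu1.

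The mutant lines were next compared with each other. Between G519R and iKO cultures, 0 of the 38 genes passed the edgeR threshold and 0 passed with DESeq2, where 0.00557% of 17943 genes passed in edgeR, and 2 of the 38 had an unadjusted p under 0.05. These were Lamp1 (G519R against iKO log2 fold change -0.31, 95% confidence interval -0.61 to -0.02) and Ctsa (-0.24, -0.46 to -0.02). The difference was below 0 for 29 of the 38 genes, with a median log2 fold change of -0.08 against -0.01 over all genes. The 95% confidence intervals ran from -0.82 to 0.70 over the set, so differences of that size between the lines remain possible. That a gene such as Tpp1 or Lamp2 passed against control in a single line therefore does not show that the lines differ in it.

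Compound-1 left no gene of the set past the threshold. Between treated and vehicle-treated iKO cultures, 0 of the 38 genes passed in edgeR and 0 in DESeq2, where 0% of 18037 genes passed in edgeR (1355 had an unadjusted p under 0.05, and DESeq2 called 48 higher and 43 lower), and 2 of the 38 had an unadjusted p under 0.05. Ctsc was one of these. It had 95.2, 140, 98.8 and 111 CPM in treated cultures, against 58.5 to 102 CPM with vehicle. The ranges overlapped in iKO culture 4, and the log2 fold change was 0.57 (95% confidence interval 0.15 to 1.00, edgeR adjusted p = 0.560). The other was Ctsl, with 86.2, 96.6, 219 and 132 CPM in treated cultures against 65.0 to 92.3 CPM with vehicle. Treated culture 3 was far above the rest, and the log2 fold change was 0.70 (0.13 to 1.28, edgeR adjusted p = 0.582).

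Treated culture 3 had the highest level of its group for 26 of the 38 genes, including Ctsd at 540 CPM and Ctsh at 226 CPM, where the other treated cultures had 247 to 363 and 82.0 to 133 CPM. Over the set the median log2 fold change of treatment was 0.08, and 0.02 without this culture, against 0.00 over all genes. The genes that differed from control in both mutants had intervals that included 0, apart from Ctsc. For Psap the log2 fold change of treatment was -0.03 (95% confidence interval -0.29 to 0.23), for Man2b1 -0.02 (-0.31 to 0.27), for Ulk1 -0.19 (-0.46 to 0.08) and for Neu1 0.28 (-0.18 to 0.73). The intervals of the 38 genes together ran from -0.55 to 1.28. Enterocyte markers were below 0 in 10 of 11 cases in the same comparison (median log2 fold change -0.80, none past the threshold, 8 with an unadjusted edgeR p under 0.05). Their sum was 5509 to 8021 CPM in treated and 6419 to 13077 CPM in vehicle cultures. Goblet cell markers were above 0 in 7 of 7 cases (median log2 fold change 0.69, none past the threshold, 4 with an unadjusted edgeR p under 0.05). Their sum was 6300 CPM in treated culture 3 and 2318 to 4459 CPM in the other treated cultures. The proliferation markers of treated culture 3 had the lowest sum of its group, 720 CPM against 1257 to 1411 CPM. The part of these cell types in the values was not tested, and in whole cultures fewer cells of a type and less RNA per cell cannot be told apart.

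**Figure D4:**
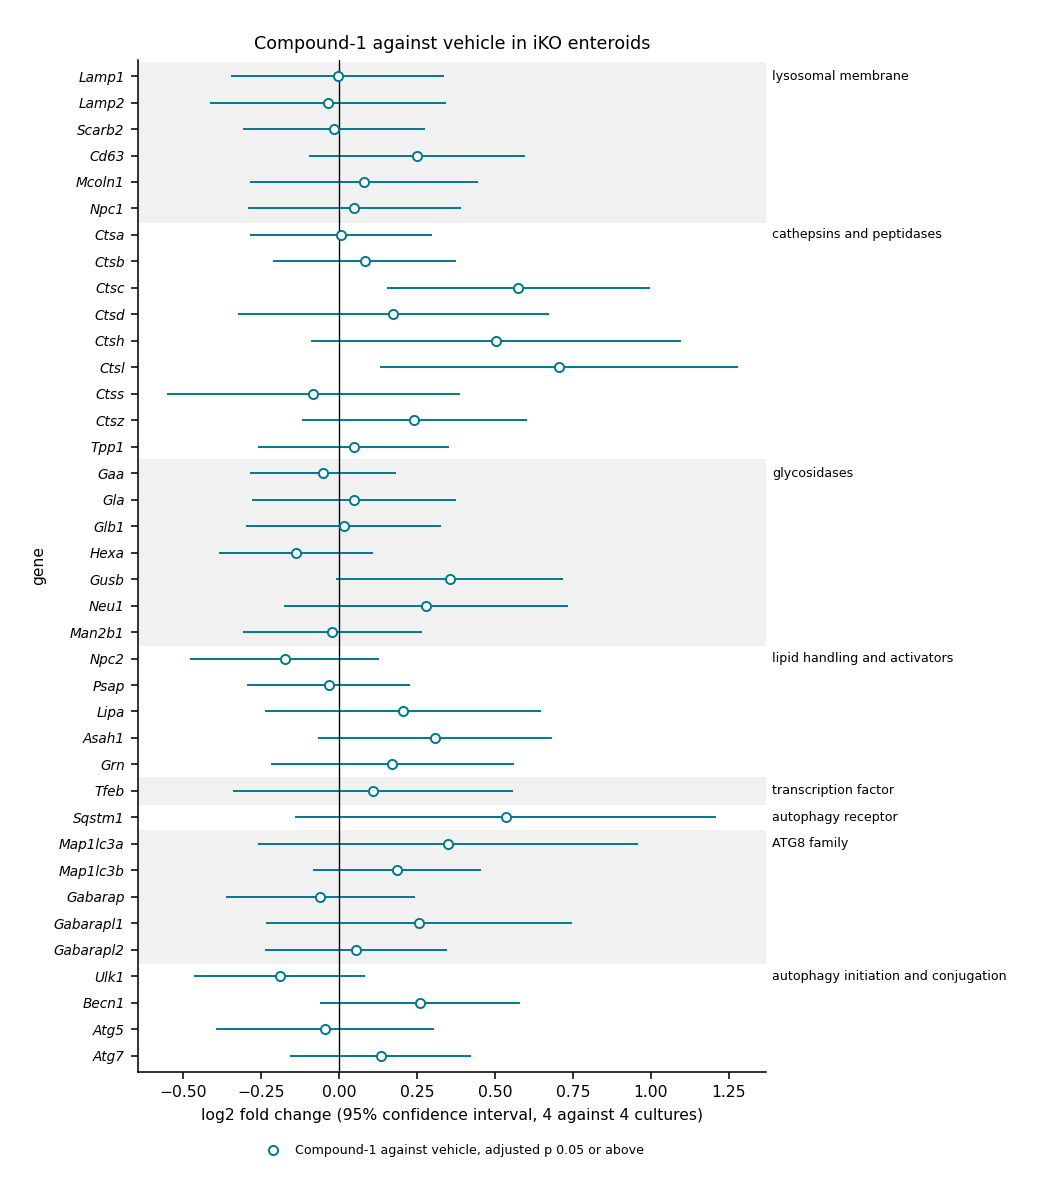
Log2 fold change of each gene between Compound-1-treated and vehicle-treated iKO enteroids (4 against 4 cultures), with its 95% confidence interval as bars. No gene passed the edgeR threshold, and only the intervals of Ctsc and Ctsl exclude 0.

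Treated cultures had 15 genes of the set higher and 2 lower than the same controls (15.7% and 13.7% of 17937 genes tested). The lower genes were Npc2 and Atg5. Cd63, Ctsc and Asah1, which were lower than control in iKO cultures with vehicle, did not pass in treated ones, with log2 fold changes against control of -0.32 (SE 0.18), -0.34 (SE 0.23) and -0.09 (SE 0.18). For Cd63 and Asah1 the direct comparison with vehicle gave 0.25 (95% confidence interval -0.10 to 0.60) and 0.31 (-0.07 to 0.68). Without control culture 1 the counts were 19 higher and 5 lower, where 22.9% and 19.2% of all genes were. Without control culture 2, 3 or 4 or treated culture 3 or 4, 9 to 12 genes of the set passed in all, where 9.67% to 10.9% of all genes were higher and 6.8% to 8.25% lower.

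Genes of the same pathways outside the set, 162 in 10 lists of which 153 were tested, gave 46 higher and 12 lower in iKO and 42 higher and 23 lower in G519R against control. Over all genes tested, 13.5% were higher and 13.8% lower in iKO and 13.1% and 13.7% in G519R, and the counts of each list below have the same background. Their median log2 fold change was 0.23 in iKO and 0.13 in G519R. Without control culture 1, 57 were higher and 24 lower in iKO and 63 higher and 39 lower in G519R, where 21.2% and 20.8% of all genes were called in iKO and 24% and 22.1% in G519R. None of 157 passed between treated and vehicle cultures in edgeR, and 5 had an unadjusted p under 0.05.

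Among the lists with more than 2 genes tested, sorting to lysosomes had the largest share of higher genes, 6 of 13 in each mutant, with 1 lower. It held Igf2r, the receptor that carries mannose 6-phosphate-tagged hydrolases to endosomes, at 78.8 CPM in control, 222 in iKO and 189 in G519R (edgeR adjusted p = 0.00166 and 0.00320). Gga1, an adaptor that recognizes such receptors at the trans-Golgi, rose from 41.9 to 72.1 and 76.2 CPM. Ap3d1, a subunit of the AP-3 coat, rose from 85.3 to 148 and 141 CPM. M6pr, the other mannose 6-phosphate receptor, was the lower gene (log2 fold change -0.52, SE 0.13, adjusted p = 0.0135 in edgeR in iKO).

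Other lysosomal hydrolases gave 9 higher and 1 lower of 32 tested in iKO and 10 higher and 3 lower of 31 in G519R. Sgsh, a heparan sulfate sulfatase, went from 8.45 CPM in control to 15.1 in iKO and 15.2 in G519R. Plbd2 went from 28.4 to 48.0 and 50.9 CPM. Among other membrane proteins (4 higher and 1 lower of 18 in iKO, 3 and 2 in G519R), the endolysosomal channel gene Tpcn1 went from 14.7 CPM in control to 35.9 in iKO and 35.4 in G519R (edgeR adjusted p = 0.00142 and 0.00181). Sidt2 was also higher, by log2 fold changes of 0.99 and 0.75, and Laptm4a was lower, at -0.48 and -0.69.

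Subunits of the vacuolar ATPase, the proton pump of the lysosome, were split, with 5 higher and 3 lower of 16 in iKO and 3 and 2 in G519R. Both higher examples are membrane-sector a subunits, Atp6v0a1 (36.8 CPM in control, 105 in iKO, 80.5 in G519R, log2 fold change 1.51, SE 0.22, and 1.13, SE 0.23) and Atp6v0a2 (1.03 and 0.74). The small membrane subunit Atp6v0e was lower (-0.59 and -0.68). Genes of mTORC1 control at the lysosome and the MiT/TFE factors gave 6 higher and 2 lower of 18 in iKO and 5 and 4 of 19 in G519R. The mTORC1 subunit Rptor (0.90 and 0.84) and the mTORC1 inhibitor Tsc2 (0.96 and 0.86) were both higher, and Lamtor5 of the Ragulator complex was lower (-0.97 and -0.79).

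For autophagy, initiation and phagophore growth had 7 higher and 2 lower of 19 in iKO and 8 and 4 in G519R. Atg9b, a lipid scramblase of the vesicles that seed the phagophore, had the largest change at 80.9 CPM in control, 417 in iKO and 313 in G519R (log2 fold change 2.37, SE 0.27, adjusted p = 0.00140 in edgeR, and 1.95, SE 0.26, adjusted p = 0.00204 in edgeR), followed by the lipid transfer protein Atg2a (1.15 and 1.06) and by Atg9a (1.02 and 0.77). ATG8 conjugation had 0 of 9 past the edgeR threshold in iKO, with 2 at an unadjusted p under 0.05, and 3 lower in G519R. Autophagy receptors had 3 higher and 2 lower of 13 in iKO and 3 and 3 in G519R, among them Wdfy3 (0.99 and 1.02) and Tollip (0.68 and 0.53) higher and the mitophagy receptor Fundc1 lower (-0.78 and -0.69). Fusion of autophagosomes and lysosomes had 5 higher and none lower of 13 in iKO and 2 higher and 1 lower in G519R, led by Vps18 (1.21 and 1.09) of the HOPS tether and Plekhm1 (1.10 and 0.98). Cubn, an apical uptake receptor, averaged 2.45 CPM in control, 20.9 in iKO and 8.87 in G519R (log2 fold change 3.09, SE 0.78, and 1.85, SE 0.55). Its mutant and control cultures overlapped in both comparisons, and its list had only 2 genes tested.

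**Figure D5:**
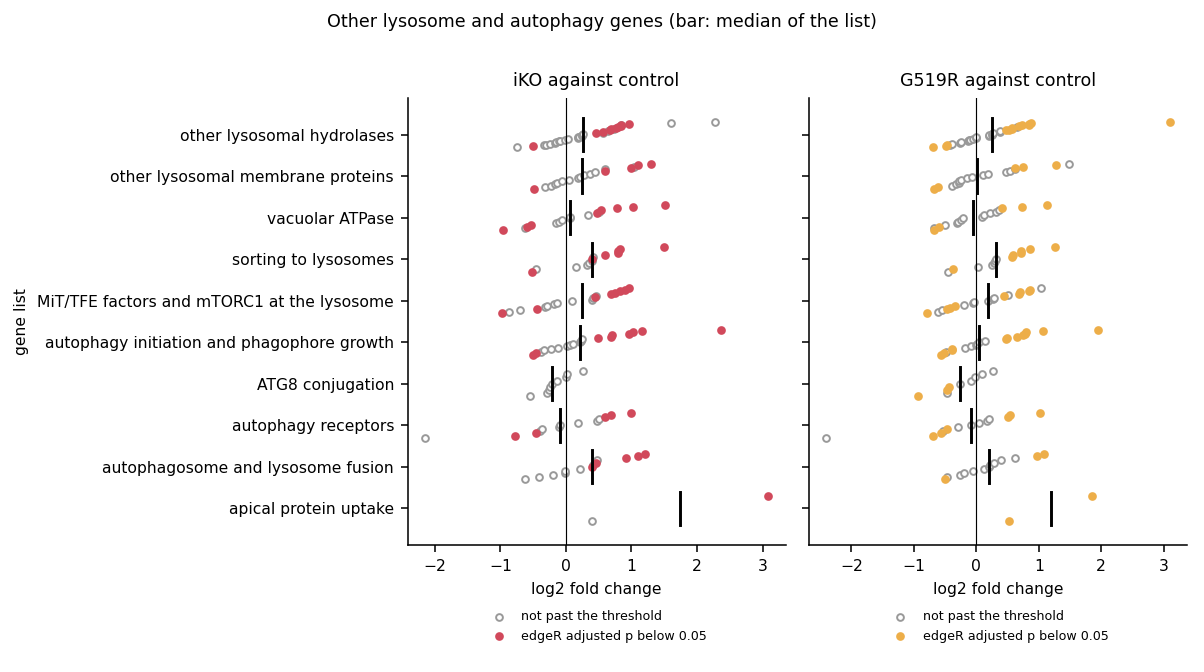
Log2 fold change against control of the other lysosome and autophagy genes, by list, in iKO (left) and G519R (right) enteroids, where each point is a gene, colour marks an edgeR adjusted p below 0.05 and the black bar is the median of the list. Sorting to lysosomes has medians of 0.40 and 0.31, and ATG8 conjugation has medians of -0.21 and -0.26.

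Longer genes tended to be higher in the mutants. Across genes, which are not independent replicates, Spearman's rho of the log2 fold change with gene length was 0.29 in iKO and 0.29 in G519R against control, and 0.01 for Compound-1 against vehicle. The genes of the set had a median length of 4116 bases, against 3350.5 for the genes tested. With the length trend removed from each culture, 15 genes of the set were higher and 6 lower in iKO and 11 higher and 8 lower in G519R. In these fits 12% of all genes were higher and 15.3% lower in iKO, and 12.6% and 14.8% in G519R. The 12 genes described above by culture passed in both comparisons. The pathway genes outside the set were not examined with this trend removed, so its part in their values was not tested. Of 6 proliferation markers, 4 were lower in iKO and 3 in G519R at the threshold, none higher. Before the trend was removed, 13.8% and 13.7% of all genes were lower. In iKO all 6 lay below 0, and in G519R 4 lay below and 2 above. Their sums were 1520 to 1969 CPM in control, 1071 to 1366 in iKO and 1287 to 1630 in G519R. The stem cell markers (6 genes, 1 higher and 1 lower in each mutant) summed to 2430 to 6450, 1020 to 2236 and 1404 to 2759 CPM. Yet 4 of these 6 had a log2 fold change above 0 in each mutant (medians 0.09 and 0.30), and the lowest values were -2.26 and -1.63. The enterocyte markers (2 of 11 higher in iKO, 1 higher and 1 lower in G519R) summed to 6419 to 13077 and 5656 to 9018 CPM in these mutants, and to 3500 to 16429 CPM in control. In iKO 7 of the 11 lay above 0 and 4 below (median log2 fold change 0.47). In G519R 4 lay above 0 and 7 below (median -0.06). The part of these cell states in the values of the lysosome and autophagy genes was not tested.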

How the data were processed

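RNA of 16 enteroid cultures in 4 groups of 4 was measured, with groups as the labels give them. The deposited counts are reads per gene that the authors obtained with HTSeq 0.6.1 after STAR 2.5 alignment to GRCm38 (mm10), per the submitters' processing notes and the methods, and the FPKM were made by the authors from such counts by dividing by gene length and library size. DESeq2 and TopHat are also named in those notes. The strand setting of the counting and the treatment of reads with several positions are not given in the sources used here. Values are therefore uncertain for the closely related ATG8 genes with their pseudogenes. They are also uncertain for the 14 genes of the set that share exons with another gene in GENCODE M21, 12 on the opposite strand. On the opposite strand, Becn1, Gabarapl1, Ctsl and Sqstm1 shared the most (17.3% to 43.9% of exonic bases), with partner genes at no more than 1.28% of their counts. Ctsd shared 34.4% of its exonic bases with Gm49369 on the same strand, where strand cannot separate the reads. That partner had 0.00132% of the counts of Ctsd. Opposite partners had 139% of the counts of Npc1, 71.5% for Map1lc3b, 34.2% for Ctsb and 19.5% for Ctsz, over 0.694% to 12.8% of exonic bases.

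Groups were compared pairwise on the counts by the quasi-likelihood F test of edgeR 4.0.16 in R 4.3.3, after TMM scaling, for genes with 10 or more counts in 2 or more of the cultures compared, and p-values were adjusted by Benjamini-Hochberg over all of these. The code was tested on simulated data. The 38 genes and the pathway and marker lists were chosen with earlier results of these data known, and no list was tested as a set. Values per culture are given for genes of the set past the threshold in both iKO and G519R against control, other genes of the set by means and ranges, with single cultures added after seeing the data where control culture 1 or treated culture 3 stood apart and for Sqstm1. From each pathway list up to 3 genes past it in both with the largest mean change and at least 1 CPM are named, and M6pr was added after its value was seen. One gene that this rule names is not reported here. Alternatives were DESeq2 1.42.0, its size factors within edgeR, mitochondrial genes left out of library sizes, filtering by filterByExpr or not at all, a joint fit of the 4 groups, a block on the replicate number, limma 3.58.1 on log2(FPKM + 1) and log2(FPKM + 0.1), the trend on gene length removed, and each culture left out. Removing that trend together with control culture 1 was added after seeing the data. Intervals are 95% intervals of the edgeR fit. The study names 4 mice per group, but the labels do not tie cultures to animals, so p-values measure the spread between these cultures. Protein sequences were not used here.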

Additional observations from a re-analysis of the deposited data

Results flagged for a closer look

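In 14 of 152 groups of 4 cultures (38 genes in 4 groups), the highest or lowest culture lay far from the other 3 by Dixon's criterion, where chance gives about 1 in 20. Control culture 1 accounted for 7 of them, always as the highest: Npc1 at 32.8 CPM, Gaa at 81.4, Hexa at 87.9, Man2b1 at 98.3, Psap at 301, Sqstm1 at 335 and Atg7 at 40.7 CPM. In iKO, culture 3 was high for Lamp1 at 778 CPM, and culture 4 for Gusb at 113 and Sqstm1 at 348 CPM. In G519R, culture 3 was high for Lamp1 at 587 CPM. In Compound-1-treated enteroids, culture 2 was low for Ctss at 18.5 and Asah1 at 89.8 CPM, and culture 3 was high for Map1lc3b at 103 CPM.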

How the results depend on the processing

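Counts of higher genes ranged from 7 to 16 in iKO and 6 to 16 in G519R against control, and of lower genes from 1 to 9 and 4 to 11, when each culture was left out in turn. For treated cultures against control, 9 to 24 genes passed. The high ends came without control culture 1. With the length trend removed and control culture 1 left out, 10 genes were lower in iKO, and 16 were higher and 14 lower in G519R. Other alternatives kept these counts within 1.5 times. For single genes called against control, the call was kept in 544 refits, lost in the same direction in 102 and reversed in 0.

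The replicate block gave 10 higher and 3 lower genes in iKO, 9 and 5 in G519R, 16 for treated cultures against control and 0 in the other comparisons. The labels do not say that a number pairs cultures. Deviations of same-numbered cultures correlated at -0.19 to 0.09 between iKO and control, -0.15 to 0.20 between G519R and control, -0.12 to 0.09 between treated and vehicle cultures and 0.06 to 0.52 between G519R and iKO, where cultures 1, 3 and 4 correlated best with their own number and culture 2 did not. This is a hint from the data and not from the design.

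With 4 cultures per group the interval of a log2 fold change had a median half-width of 0.36 in iKO and 0.34 in G519R.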
